A study of Mus musculus with 12 samples.

Results

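Embryoid bodies of the mouse 1343KO line (label WT+1343KO-a14) were compared at day 16 and day 8 of culture by sequencing their poly(A) RNA. The comparison uses 4 of the 12 libraries of the series, 2 at day 16 and 2 at day 8, chosen by their column names. Embryoid bodies are floating aggregates in which stem cells differentiate once leukaemia inhibitory factor (LIF), a cytokine that holds them undifferentiated, is withdrawn. The labels do not explain the leading WT+ or the number in the name of the line. Its genotype is read here as a knockout (KO), carried by 1 clone (a14). Since the title of the series calls SNORA73, a small nucleolar RNA, essential for the exit from pluripotency, the comparison asks how far this line went on changing in the second week of culture. The other groups were the 1343KO line at day 0 and a line labelled WT at days 16, 8 and 0, with 2 libraries each. At day 0 both lines were stem cells on gelatin in serum with LIF. At days 8 and 16 both were in suspension in serum medium without LIF, on plates to which cells do not attach. No strain, sex or other allele is given. No label tells whether the 2 libraries of a group were separate cultures, and the p-values thus reflect a spread that may be technical.

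Stem cells that leave pluripotency first lose the factors of the naive state, then pass through a formative epiblast state and on to the germ layers. In embryoid bodies an outer layer resembling the visceral endoderm of the yolk sac forms early, and heart muscle, blood, vessels and mesenchyme can appear within. Trophoblast, the lineage of the placenta, is rarely made by mouse embryonic stem cells. In the mouse placenta, trophoblast giant cells and spongiotrophoblast secrete hormones of the prolactin family, which is encoded by a large cluster of related genes. In bulk RNA, fewer cells of a type and less RNA per cell cannot be told apart, and this holds for every value below.

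Levels are in FPKM, fragments per kilobase of transcript, scaled to library depth, as deposited. Changes are differences of log2(FPKM + 1), day 16 minus day 8, with the standard error of the fit. Genes with an adjusted p under 0.05 from limma are said to have passed, over the 16289 genes that reached 1 FPKM in at least 2 libraries. The scale understates the change of genes near 0. Depth was estimated at about 4884000 to 8071000 fragments per library, so 1 FPKM of a transcript of 1 kilobase rests on about 4.9 to 8.1 fragments. The day 8 libraries of the 1343KO line were the deepest and the shallowest of the 12, and those of day 16 lay between, so depth did not separate the days. Mitochondrial genes held 9.07% and 8.36% of FPKM at day 16, against 9.08% and 10.2% at day 8. Across the tested genes the day 16 and day 8 libraries of the 1343KO line correlated at 0.965 on average, close to the 0.971 and 0.970 between replicates of day 16 and of day 8, while WT day 16 and day 8 libraries correlated at 0.916. These correlations are across genes, which are not independent replicates.

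Snhg3, the noncoding host gene of SNORA73 on chr4:132348014-132353686 (GRCm38), was listed at 0 in both day 16 libraries and at 0, after rounding, in both day 8 libraries of the 1343KO line. At day 0 the 1343KO line had 1.57 and 0 FPKM of Snhg3. In WT Snhg3 stood at 16.7 and 8.31 FPKM at day 16 and at 13.7 and 30.2 FPKM at day 8. The overlapping gene Rcc1, the exchange factor of the nuclear transport protein Ran, held 33.7 and 33.0 FPKM at day 16 of the 1343KO line, against 35.7 and 36.0 FPKM at day 8. That change of -0.10 ± 0.15 did not pass (adjusted p = 0.847). Reads in the overlap may be split between the 2 genes by the authors' estimate.

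In the 1343KO line 131 of 16289 genes passed (0.804%): 98 were higher at day 16 (0.602%) and 33 lower (0.203%). Of these, 55 were higher and 15 lower by at least 2-fold on the log2(FPKM + 1) scale. The libraries of the 2 days did not overlap for any of the 131, but this also held for 6832 of all 16289 genes (41.9%). In WT over the same days 4495 genes passed (27.6%), 2301 of them higher (14.1%) and 2194 lower (13.5%). The change of the 1343KO line differed from that of WT for 2720 genes (16.7%), 1384 of them with a positive difference (8.5%) and 1336 with a negative one (8.2%). A gene that did not pass is not shown to be unchanged. The count depended on single libraries: 56 and 36 genes passed without day 8 replicate 1 or 2 of the 1343KO line, and 40 and 39 without its day 16 replicate 1 or 2. With only the 4 libraries compared, none passed in limma, although 1826 had an unadjusted p under 0.05, and with the 6 libraries of the 1343KO line alone 10 passed, 8 of them among the 131. The calls therefore rest on the spread shared with the other groups, which is small for genes listed at or near 0 there.

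**Figure D1:**
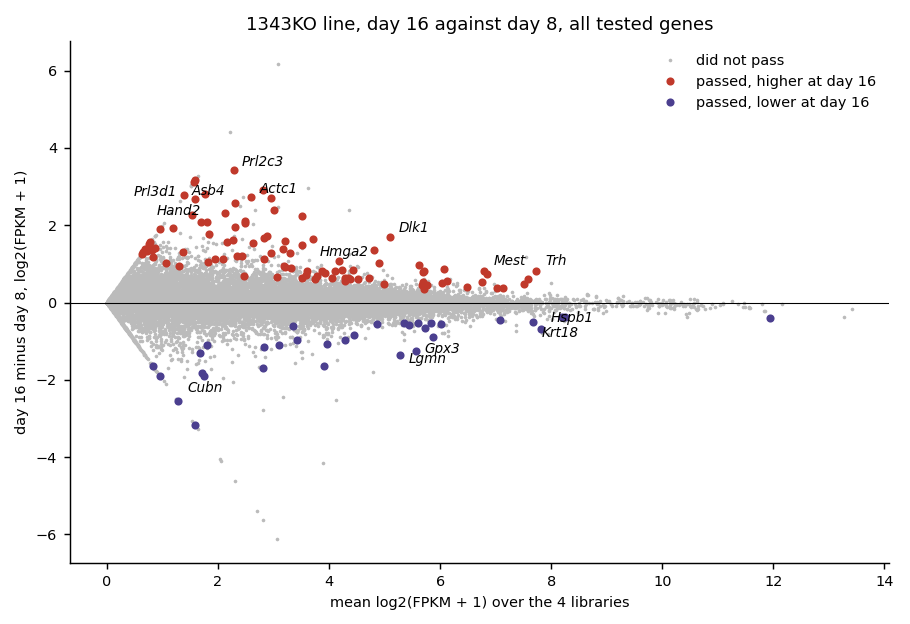
Each point is 1 of 16289 tested genes of the 1343KO line; the horizontal axis gives its mean log2(FPKM + 1) over the 4 libraries and the vertical axis its day 16 minus day 8 difference on the same scale. Red points are the 98 genes that passed higher at day 16 and violet points the 33 that passed lower; prolactin genes and Actc1 are at the top and Cubn and Lgmn at the bottom of the named genes.

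Calls of 22 genes, 16 higher and 6 lower, were kept in all 12 fits that leave out 1 library. Among those with a gene name they were Prl2c3, Prl2c2, Prl4a1, Prl3d1, Actc1, Asb4, Hand2, Nrp1, Hmga2, Trh, Mest, Amot, Grb10 and Scd2, higher, and Cubn, Lgmn and Gpx3, lower. The filter on level was not applied again in these fits. Prl2c2, Prl4a1 and Prl3d1 reached 1 FPKM only in the 2 day 16 libraries of the 1343KO line. Without either of those libraries the filter would have dropped them, so their kept calls are a description. Nrp1, Amot and Scd2, with Rgs5, Tpbpb and Ctsh, belong to no list or group of markers used here and were chosen after their values were seen. Genes of the lists that are described although they did not pass, such as H19 or Plk1, were likewise picked with their values known, to account for their list. For every other call below, the libraries on which it rests are given beside it.

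Among genes with a name, the placental prolactin genes led the rises. The unnamed gene models Gm43110 and Gm17122 rose by 3.161 and 3.125 (adjusted p = 0.000143 for each), more than any prolactin gene except Prl2c3. The prolactin family has 26 genes in the table, with Prl2c2, Prl2c3 and Prl2c5 at chr13:12790816-13191923 and the others at chr13:27057570-28151611 (GRCm38). Its summed level was 105.3 and 102.5 FPKM at day 16 of the 1343KO line, against 15.75 and 14.94 FPKM at day 8 and 1.367 and 2.109 FPKM at day 0. In WT the sum was 7.75 and 10.12 FPKM at day 16, against 2.724 and 1.325 FPKM at day 8. No prolactin gene exceeded 3.45 FPKM in any WT library. Of the 26 genes, 12 were tested, 10 passed higher at day 16, and 14 were not tested, 7 of those being listed at 0 in all 12 libraries. The family was picked after its members were seen to lead the rises of named genes. Several members entered the test only through day 16 of the 1343KO line. The count of calls is thus a description and is not read against the background.

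Prl2c3, Prl2c2 and Prl2c5 encode proliferins, hormones of trophoblast giant cells that act on blood vessels. Prl2c3 stood at 14.5 and 15.6 FPKM at day 16, against 1.2 and 0 FPKM at day 8 (change 3.43 ± 0.33, adjusted p = 0.00223). Prl2c2 stood at 8.21 and 7.83 FPKM at day 16, against 0.201 and 0.358 FPKM at day 8 (change 2.82 ± 0.21, adjusted p = 0.00056). Prl2c5 reached 18.1 and 16.7 FPKM at day 16, against 2.13 and 2.85 FPKM at day 8 (adjusted p = 0.0206). The 2 days did not overlap for any of them, as for 41.9% of all genes. Prl2c3 and Prl2c2 were listed at 0 in all 4 WT libraries of these days. The 3 genes are near-identical copies, so the authors' estimate may divide their reads in ways that cannot be checked here. The call of Prl2c5 ended without each of the 4 libraries compared, with adjusted p of 0.107 to 0.128.

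Prl3d1 and Prl3b1 encode placental lactogens I and II, which bind the prolactin receptor of the mother. Prl3d1 stood at 7.55 and 5.67 FPKM at day 16, against 0.406 and 0 FPKM at day 8 (change 2.67 ± 0.23, adjusted p = 0.00102). Prl3b1 stood at 10.7 and 10.6 FPKM at day 16, against 1.40 and 2.02 FPKM at day 8 (adjusted p = 0.0238). Both days are well apart for each gene, yet the call of Prl3b1 ended without each of the 4 libraries compared and without either WT day 16 library, with adjusted p of 0.0547 to 0.139.

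The other members are less studied hormones of the placenta and decidua. Prl4a1, expressed by trophoblast, stood at 5.25 and 6.49 FPKM at day 16 and was listed at 0 in both day 8 libraries (adjusted p = 0.00117). Prl2a1 had 19.9 and 16.4 FPKM at day 16, against 0.398 and 3.66 FPKM at day 8 (adjusted p = 0.0359). The wide gap between its day 8 libraries goes with a call that was kept in 1 of the 12 fits that leave out 1 library, the one without day 8 replicate 2, with adjusted p up to 0.188 in the others. Prl7b1 had 6.88 and 4.08 FPKM at day 16, against 0.745 and 0 FPKM at day 8 (adjusted p = 0.0155, and 0.111 without day 8 replicate 2 or 0.099 without day 16 replicate 1). Prl7d1 had 8.52 and 10.6 FPKM at day 16, against 3.37 and 1.97 FPKM at day 8 (adjusted p = 0.0206, and 0.146, 0.0799 and 0.123 without day 8 replicate 2, day 16 replicate 1 and day 16 replicate 2). Prl7a1, the lowest of those that passed, had 2.24 and 1.42 FPKM at day 16, against 0.185 and 0 FPKM at day 8 (adjusted p = 0.0398). Its call was kept only without a WT day 16 library and reached an adjusted p of 0.247 without day 8 replicate 2.

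Prl8a9 and Prl2b1 were tested and did not pass. Prl8a9 had 0.496 and 1.40 FPKM at day 16 and was listed at 0 at day 8 in the 1343KO line (adjusted p = 0.138). Prl2b1 was the exception in sign, with 1.40 and 2.1 FPKM at day 16, against 4.89 and 3.41 FPKM at day 8 (change -0.90 ± 0.25, adjusted p = 0.166). In WT both genes passed higher at day 16, Prl8a9 with adjusted p = 0.00601 and Prl2b1 with adjusted p = 0.00502.

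**Figure D2:**
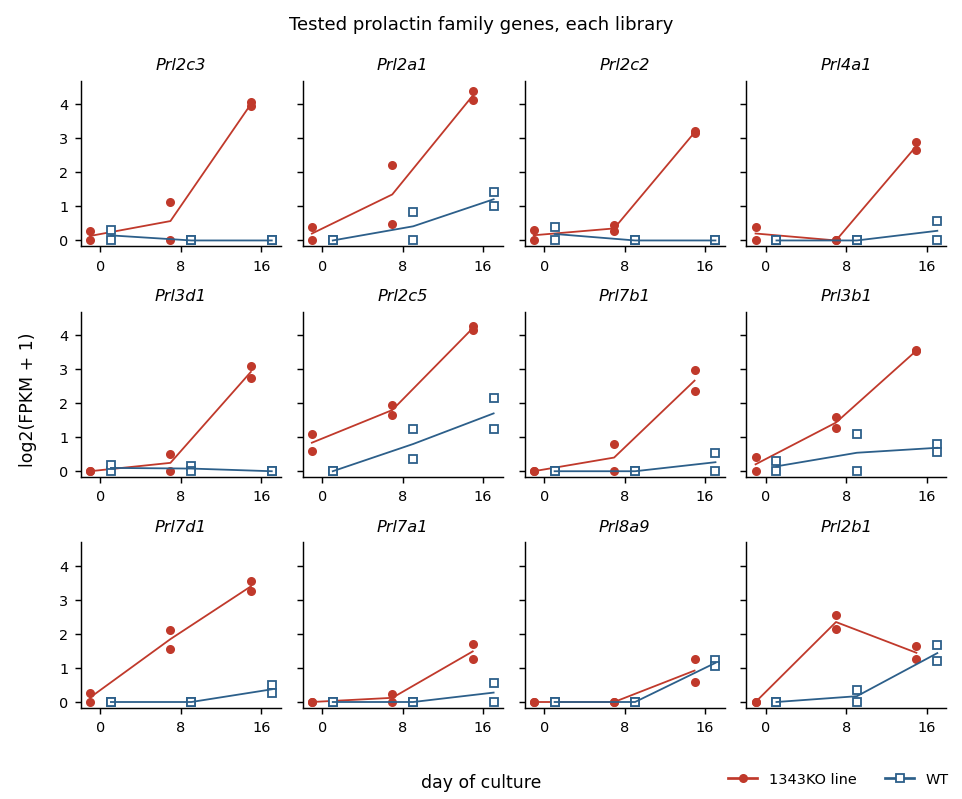
Log2(FPKM + 1) of the 12 tested prolactin family genes by day of culture, with 1 point per library and lines through the group means; red circles are the 1343KO line and open blue squares WT. The 10 genes that passed are highest at day 16 of the 1343KO line; Prl8a9 stays low in both lines and Prl2b1 is lower at day 16 than at day 8.

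The 10 prolactin calls depended on the processing. Their number was 1 with a pseudocount of 0.1, 5 with TPM scaling, 0 with only the 4 libraries compared, 1 in the fit of the 6 libraries of the 1343KO line, and 4 to 8 when 1 library was left out. Prl4a1 was the call kept with a pseudocount of 0.1. With a test for a change beyond 2-fold, 8 genes passed in all, 4 of them prolactins (Prl2c3, Prl2c2, Prl4a1 and Prl3d1), with Actc1, Asb4 and 2 unnamed gene models. Of these prolactins, Prl2c2, Prl4a1 and Prl3d1 reached 1 FPKM only in the day 16 libraries of the 1343KO line. Prl2c3 reached it elsewhere only in day 8 replicate 1 of that line, short of the 2 libraries required. All 4 thus entered the test through the group where they are high.

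Because so many of these related genes moved together, promoter windows of some of them are shown, from RefSeq on GRCm38.p6. Each runs from 250 bases before to 50 bases after the annotated start. Capitals mark matches, on either strand, to TATATANGAGG, the run of 11 letters with 1 of them free that the most windows of called prolactin genes share, to the GATA motif AGATAA and to the AP-1 motif TGACTCA. No marked matches overlap. Prl2c3 lies at chr13:12800030-12800329 on the minus strand, Prl3d1 at chr13:27093939-27094238, Prl4a1 at chr13:28015962-28016261 and Prl2a1 at chr13:27801405-27801704, these on the plus strand.
Prl2c3: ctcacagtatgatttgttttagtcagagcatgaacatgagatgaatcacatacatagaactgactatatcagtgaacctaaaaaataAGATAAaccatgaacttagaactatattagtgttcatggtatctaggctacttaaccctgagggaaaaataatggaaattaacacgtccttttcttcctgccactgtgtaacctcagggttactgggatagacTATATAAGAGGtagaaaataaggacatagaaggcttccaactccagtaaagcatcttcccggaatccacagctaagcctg
Prl3d1: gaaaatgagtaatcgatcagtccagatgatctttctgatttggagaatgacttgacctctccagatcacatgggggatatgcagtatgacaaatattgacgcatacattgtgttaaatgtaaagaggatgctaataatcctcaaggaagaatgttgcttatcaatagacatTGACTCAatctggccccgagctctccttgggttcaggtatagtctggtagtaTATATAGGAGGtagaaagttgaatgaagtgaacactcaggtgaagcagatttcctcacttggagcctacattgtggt
Prl4a1: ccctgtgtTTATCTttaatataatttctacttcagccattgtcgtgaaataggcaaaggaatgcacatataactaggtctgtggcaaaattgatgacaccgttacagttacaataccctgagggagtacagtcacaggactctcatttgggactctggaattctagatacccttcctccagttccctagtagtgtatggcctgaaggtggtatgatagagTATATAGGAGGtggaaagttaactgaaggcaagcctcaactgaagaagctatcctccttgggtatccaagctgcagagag
Prl2a1: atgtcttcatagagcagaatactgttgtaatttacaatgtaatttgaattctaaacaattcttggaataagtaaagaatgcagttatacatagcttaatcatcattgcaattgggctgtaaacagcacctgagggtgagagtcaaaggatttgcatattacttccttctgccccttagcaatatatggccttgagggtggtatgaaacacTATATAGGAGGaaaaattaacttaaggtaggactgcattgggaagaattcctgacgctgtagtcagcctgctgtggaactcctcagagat
The first motif was taken from these windows, so its count is no test. It was in 21 of 32851 windows of all genes (0.0639%). Among prolactin genes with a window, it was in 7 of the 8 that passed and in 4 of the other 14; Prl3b1 was the one that passed without it, and Prl2c2 and Prl7b1 had no window in the table. AGATAA was in 5 of those 8 genes, in 5 of the other 14 and in 11.2% of all windows. TGACTCA was in 2 of the 8, in 4 of the other 14 and in 5.2% of all windows. A prolactin gene was counted if any of its windows matched. A match is a string of letters and does not show that a factor binds.

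In the list of trophoblast genes, 2 of 19 tested members rose (10.5%, against 0.602% of all genes), and none fell. The 2 were Prl3d1 and Prl2c2, which are also in the prolactin count above. Both entered the test only through day 16 of the 1343KO line, so this share is a description and no support. The list's median change was 0.01, against 0.03 over all genes. Its summed level was 245.1 and 256.4 FPKM at day 16, against 301.7 and 266.4 FPKM at day 8. Transcription factors of the lineage did not pass: Cdx2, which founds the trophectoderm, had 1.47 and 0.933 FPKM at day 16, against 1.81 and 1.60 FPKM at day 8 (adjusted p = 0.715). Hand1, needed for giant cells, had 19 and 21.6 FPKM at day 16, against 16.9 and 15.6 FPKM at day 8 (adjusted p = 0.517). Ascl2, a factor of the spongiotrophoblast, had 1.23 and 1.98 FPKM at day 16, against 2.35 and 5.26 FPKM at day 8, with libraries of each day far apart (adjusted p = 0.467). Gcm1, the switch to labyrinth trophoblast, had 1.81 and 2.15 FPKM at day 16, against 1.34 and 0.553 FPKM at day 8 (adjusted p = 0.348).

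Tpbpa and Tpbpb, products of the spongiotrophoblast, differed. Tpbpb stood at 1.59 and 1.63 FPKM at day 16 and was listed at 0 in both day 8 libraries (adjusted p = 0.0233, and 0.0995 to 0.152 without each of the 4 libraries compared). Tpbpa had 6.45 and 4.62 FPKM at day 16, against 2.53 and 4.88 FPKM at day 8, so its days overlapped (adjusted p = 0.524). Of 8 placental cathepsins, proteases encoded on the same chromosome, 3 were tested and none passed. Ctsj came nearest, with 19.3 and 15.9 FPKM at day 16, against 5.19 and 6.88 FPKM at day 8 (change 1.41 ± 0.26, adjusted p = 0.0511). No pregnancy-specific glycoprotein gene, another placental family, reached the filter.

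Some heart muscle genes rose. Actc1, cardiac actin, stood at 13.8 and 15.4 FPKM at day 16, against 1.5 and 1.17 FPKM at day 8 (change 2.74 ± 0.18, adjusted p = 0.000367). Hand2, a transcription factor of the right ventricle and second heart field, stood at 6.63 and 5.72 FPKM at day 16, against 0.922 and 0.477 FPKM at day 8 (adjusted p = 0.00325). Tnnt2, cardiac troponin T, stood at 12 and 8.89 FPKM at day 16, against 1.42 and 2.09 FPKM at day 8 (adjusted p = 0.00977, and 0.0653 and 0.0795 without replicate 1 of day 8 and of day 16). Tnni1, the troponin I of the embryonic heart, stood at 9.67 and 7.87 FPKM at day 16, against 1.31 and 1.72 FPKM at day 8 (adjusted p = 0.0233). Its call was kept in 4 of 12 fits, those without a day 0 library, with adjusted p up to 0.151. The day 16 libraries were above the day 8 libraries for all 4 genes, while 41.9% of all genes had no overlap between the days.

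Over the list of cardiac sarcomere genes, Actc1, Tnnt2 and Tnni1 rose, 3 of 16 tested members (18.8%, against 0.602% of all genes), and none fell, with a median change of 0.87, against 0.03 over all genes. In WT 3 of the 16 rose (18.8%), near the 14.1% of all genes, with a median of 0.03. The difference between the lines passed as positive for 6 of the 16 and as negative for 1, against 8.5% and 8.2% of all genes. The summed level was 82.45 and 92.58 FPKM at day 16 of the 1343KO line, against 33.54 and 38.53 FPKM at day 8. In WT it was 111.7 and 139.9 FPKM at day 16, against 134.2 and 137.1 FPKM at day 8. Atrial light chain Myl7 had 8.57 and 11.9 FPKM at day 16, against 2.32 and 1.30 FPKM at day 8, and did not pass (adjusted p = 0.0732). The motor proteins Myh6 and Myh7 were low: Myh6 had 2.98 and 3.05 FPKM at day 16, against 0.848 and 0.378 FPKM at day 8 (adjusted p = 0.183), and Myh7 had 4.27 and 5.03 FPKM, against 3.36 and 1.24 FPKM (adjusted p = 0.288). Tnnc1, troponin C, had the most negative change of the list, with 5.27 and 7.38 FPKM at day 16, against 6.29 and 9.18 FPKM at day 8 (adjusted p = 0.714). Nppa, the atrial hormone, was not tested.

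Actc1 lies on chromosome 2 and its window holds a CArG box, the site read by serum response factor in muscle genes, marked in capitals. The window is chr2:114052826-114053125 on the minus strand, from RefSeq on GRCm38.p6.
Actc1: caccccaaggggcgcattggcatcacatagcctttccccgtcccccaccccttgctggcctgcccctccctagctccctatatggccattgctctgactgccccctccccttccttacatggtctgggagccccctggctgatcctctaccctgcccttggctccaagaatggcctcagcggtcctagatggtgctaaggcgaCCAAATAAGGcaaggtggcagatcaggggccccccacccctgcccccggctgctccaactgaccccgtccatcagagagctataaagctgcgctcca
Of the 17 genes of the sarcomere list, 3 had a CArG box in at least 1 window, against 1.63% of all windows, a share of windows rather than genes. Actc1 was among the 3, while Tnnt2 and Tnni1 were not.

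**Figure D3:**
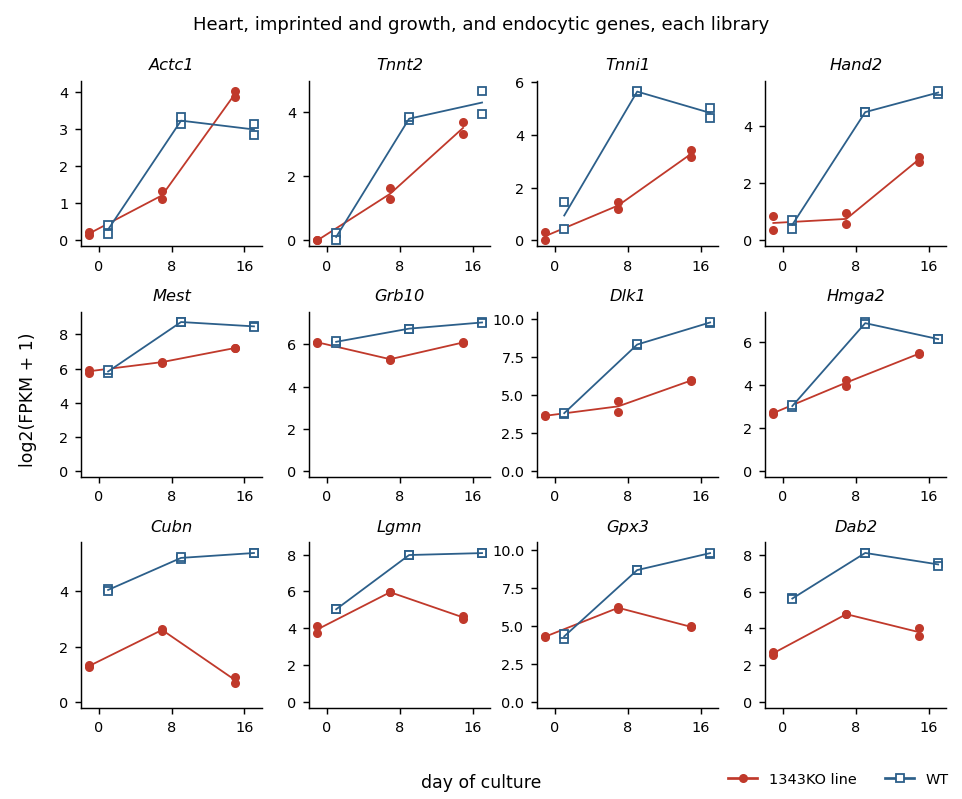
Log2(FPKM + 1) by day of culture of heart genes (top row), imprinted and growth genes (middle row) and endocytic and yolk sac genes (bottom row), with 1 point per library and lines through the group means; red circles are the 1343KO line and open blue squares WT. In the 1343KO line the top 2 rows are higher at day 16 than at day 8 and the bottom row is lower.

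Outside the heart list, mesoderm and vessel genes gave a few calls. Of 17 tested mesoderm transcription factors, Hand2 alone rose (5.88%, against 0.602% of all genes), with a list median of 0.69, against 0.03 over all genes. In WT 7 rose (41.2%) and 3 fell (17.6%), against 14.1% and 13.5% of all genes. Nrp1, a receptor for semaphorins and VEGF, stood at 6.80 and 8.20 FPKM at day 16, against 1.87 and 1.63 FPKM at day 8 (change 1.63 ± 0.13, adjusted p = 0.00083). Asb4, a ubiquitin ligase adaptor known from vessel and placenta development, stood at 11 and 11.3 FPKM at day 16, against 0.992 and 1.05 FPKM at day 8 (change 2.59 ± 0.16, adjusted p = 0.000221). Cdh5, the endothelial cadherin, was the 1 of 15 endothelial genes to pass (6.67%, against 0.602% of all genes called higher). It had 4.07 and 5.46 FPKM at day 16, against 1.54 and 1.70 FPKM at day 8 (adjusted p = 0.0188). The call of Cdh5 ended without day 8 replicate 1, day 8 replicate 2 and day 16 replicate 2 (adjusted p = 0.0898, 0.115 and 0.109). Kdr, the VEGF receptor, had 3.76 and 4.21 FPKM at day 16, against 1.49 and 1.12 FPKM at day 8, and did not pass (adjusted p = 0.0588).

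Rgs5, a marker of pericytes, stood at 6.03 and 7.44 FPKM at day 16, against 1.78 and 1.45 FPKM at day 8 (adjusted p = 0.00726, and 0.0646 and 0.0621 without replicate 2 of day 8 and of day 16). Among 18 blood genes only the embryonic globin Hba-x rose, with 9.51 and 8.03 FPKM at day 16, against 1.18 and 0.774 FPKM at day 8 (adjusted p = 0.0225, and 0.0813 to 0.172 without each of the 4 libraries compared). This 1 call is 5.56% of the blood list, against 0.602% of all genes called higher. In WT, Hba-x fell to 2.96 and 7.51 FPKM at day 16, against 257 and 290 FPKM at day 8. The related globin Hbb-bh1 had 7.49 and 17.6 FPKM at day 16, against 3.25 and 1.22 FPKM at day 8 of the 1343KO line (adjusted p = 0.0706). Amot, a regulator of Yap signalling and cell polarity, rose to 67.2 and 68.6 FPKM at day 16, against 37.2 and 39.3 FPKM at day 8 (adjusted p = 0.00241).

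Gkn1 and Gkn2 encode gastrokines, secreted by the stomach lining, and lie side by side on chromosome 6. Gkn2 stood at 21.8 and 25.9 FPKM at day 16, against 4.50 and 3.97 FPKM at day 8 (adjusted p = 0.021, and 0.0893 to 0.16 without each of the 4 libraries compared). Gkn1 stood at 5.04 and 6.36 FPKM at day 16, against 0.370 and 0.821 FPKM at day 8 (adjusted p = 0.00692, and 0.058 without day 16 replicate 2). Elsewhere Gkn1 reached 1 FPKM only in WT day 16 replicate 1, so it entered the test through the group where it is high. In WT Gkn1 and Gkn2 rose as well, Gkn2 to 4.88 and 3.14 FPKM at day 16, against 0 and 0.312 FPKM at day 8.

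Imprinted genes, which are expressed from 1 parental copy and many of which act on fetal and placental growth, gave 7 calls. Of 23 tested members 7 rose and none fell, with a median change of 0.34, against 0.03 over all genes and a background of 0.602% of genes called higher. In WT 12 of the 23 rose (52.2%, against 14.1% of all genes) and 3 fell (13%, near the 13.5% of all genes), with a median of 0.29. Mest, an enzyme-like gene of growing mesoderm, stood at 149 and 145 FPKM at day 16, against 80.5 and 84.4 FPKM at day 8 (change 0.82 ± 0.08, adjusted p = 0.00241). Grb10, an adaptor that restrains growth signals, stood at 67.3 and 66.3 FPKM at day 16, against 39.1 and 37.3 FPKM at day 8 (change 0.79 ± 0.06, adjusted p = 0.000612). Dlk1, a Notch-like ligand of progenitor cells, stood at 58.2 and 62.9 FPKM at day 16, against 23.6 and 13.7 FPKM at day 8 (adjusted p = 0.00536, and 0.0545 without day 16 replicate 2). The day 8 libraries of Dlk1 were far apart, and both were below those of day 16.

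The other calls of the list were smaller or rested on more libraries. Plagl1, a zinc finger factor of an imprinted network, stood at 24.8 and 19.5 FPKM at day 16, against 6.82 and 5.92 FPKM at day 8 (adjusted p = 0.0182, and 0.0702 to 0.146 without each of the 4 libraries compared). Peg3 had 62.2 and 59.9 FPKM at day 16, against 39.6 and 43.7 FPKM at day 8 (adjusted p = 0.0154, and 0.0806, 0.105 and 0.0789 without day 8 replicate 1, day 16 replicate 1 and day 16 replicate 2). Gnas, a G protein subunit, had 203 and 228 FPKM at day 16, against 161 and 149 FPKM at day 8 (adjusted p = 0.0231, and 0.053 to 0.176 without each of the 4 libraries compared). Igf2r, the receptor that clears Igf2, had 23.1 and 22.2 FPKM at day 16, against 15.4 and 15.0 FPKM at day 8 (adjusted p = 0.0484). Its call was kept only without a WT day 0 library and reached 0.247 without day 8 replicate 2. The list held 2 to 7 calls when 1 library was left out, and none with the 6 libraries of the 1343KO line alone.

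Several imprinted growth regulators did not pass. H19 had 218 and 216 FPKM at day 16, against 206 and 227 FPKM at day 8 (adjusted p = 1). Igf2, the growth factor encoded beside it, had 434 and 433 FPKM at day 16, against 369 and 393 FPKM at day 8 (adjusted p = 0.546). Cdkn1c, an inhibitor of the cell cycle, had 66.1 and 60.3 FPKM at day 16, against 64.8 and 61.7 FPKM at day 8 (adjusted p = 1). Peg10, needed in the placenta, had 177 and 174 FPKM at day 16, against 191 and 197 FPKM at day 8 (adjusted p = 0.281). In WT, Igf2, Cdkn1c and Peg10 all rose, and the difference between the lines passed for each of the 3 (adjusted p = 0.00734, 0.00382 and 6.31e-05).

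Hmga2, a chromatin protein of fetal growth that is a let-7 target, rose over 2-fold, with 44.1 and 42.8 FPKM at day 16, against 18.2 and 14.8 FPKM at day 8 (change 1.35 ± 0.10, adjusted p = 0.000612). It was the 1 of 10 genes of the Lin28 and let-7 list to pass (10%, against 0.602% of all genes called higher). In WT, Hmga2 fell to 70.6 and 69.5 FPKM at day 16, against 122 and 113 FPKM at day 8, and the difference between the lines was 2.09 ± 0.15 (adjusted p = 3.81e-05). Lin28a, which blocks let-7 maturation, had 133 and 127 FPKM at day 16, against 118 and 120 FPKM at day 8 of the 1343KO line (adjusted p = 0.376). In WT, Lin28a fell to 45.7 and 47.3 FPKM at day 16, against 177 FPKM in both day 8 libraries.

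Some epiblast genes rose. Of 15 formative and primed epiblast genes 3 rose and none fell, with a median change of 0.43, against 0.03 over all genes; 0.602% of all genes were called higher. In WT 2 rose and 3 fell, shares near the 14.1% and 13.5% of all genes. For 5 of the 15 the difference between the lines passed, in each case positive, against 8.5% of all genes. Dnmt3b, a DNA methyltransferase of the epiblast, stood at 124 and 134 FPKM at day 16, against 88.8 and 87.3 FPKM at day 8 (adjusted p = 0.0104, and 0.0618, 0.0962 and 0.0857 without day 8 replicate 1, day 8 replicate 2 and day 16 replicate 2). Cer1, an antagonist of Nodal and BMP, stood at 13.2 and 13.7 FPKM at day 16, against 4.42 and 4.75 FPKM at day 8 (adjusted p = 0.0206, and 0.0964 to 0.128 without each of the 4 libraries compared). Cdh2, N-cadherin, had 9.75 and 9.32 FPKM at day 16, against 4 and 3.60 FPKM at day 8 (adjusted p = 0.0499). Its call was kept in 3 of 12 fits, those without a WT day 0 library or WT day 8 replicate 1, with adjusted p up to 0.263. Trh, the precursor of thyrotropin-releasing hormone and high in mouse epiblast and definitive endoderm, stood at 291 and 269 FPKM at day 16, against 165 and 151 FPKM at day 8 (change 0.82 ± 0.09, adjusted p = 0.00357).

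Fgf5, a growth factor that marks the epiblast, had 36.9 and 34.1 FPKM at day 16, against 24.8 and 24.1 FPKM at day 8 (adjusted p = 0.38). Otx2, a transcription factor of the same state, had 66.6 and 72.6 FPKM at day 16, against 56.7 and 58.2 FPKM at day 8 (adjusted p = 0.698). None of the 9 tested primitive streak genes passed, which at 0.804% of all genes called is near the background, and their median change was 0.62. The difference between the lines passed as positive for 6 of the 9, against 8.5% of all genes. Brachyury (T), which marks forming mesoderm, had 7.31 and 7.08 FPKM at day 16, against 4.67 and 5.94 FPKM at day 8 (adjusted p = 0.485). Eomes, which specifies endoderm and heart precursors, had 9.28 and 8.70 FPKM at day 16, against 6.28 and 4.28 FPKM at day 8 (adjusted p = 0.247). In WT, T and Eomes fell to between 0.0813 and 0.883 FPKM at day 16, and the difference between the lines passed for both (adjusted p = 0.0145 and 0.00997).

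Of 21 genes of the fibroblast matrix list 4 rose (19%, against 0.602% of all genes), none fell and 17 did not pass, with a median change of 0.33, against 0.03 over all genes. In WT all 21 tested members rose, against 14.1% of all genes, with a median of 3.30, and for 17 of them the difference between the lines passed, lower in the 1343KO line, against 8.2% of all genes. Col3a1, a fibrillar collagen, stood at 17.8 and 18.3 FPKM at day 16, against 7.15 and 4.71 FPKM at day 8 (adjusted p = 0.0238). Lum, lumican, stood at 4.54 and 3.69 FPKM at day 16, against 1.21 and 1.73 FPKM at day 8 (adjusted p = 0.0206). Col5a1 (adjusted p = 0.0307) and the intermediate filament gene Vim (adjusted p = 0.0238) were the others. All 4 calls ended when any 1 of the day 16 libraries of either line or day 8 replicate 2 of the 1343KO line was left out, without day 8 replicate 1 only Col3a1 was kept, and without either WT day 8 library Col5a1 ended (adjusted p of 0.0547 to 0.183 in these fits). Col1a1, the main bone and skin collagen, had 5.81 and 5.76 FPKM at day 16, against 7.24 and 7.05 FPKM at day 8 of the 1343KO line (adjusted p = 0.525). In WT, Col1a1 rose to 937 and 1018 FPKM at day 16, against 47.3 and 48.5 FPKM at day 8.

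Among the genes that fell were Cubn, Amn and Dab2 of the extraembryonic endoderm list, parts of the endocytic apparatus with which the visceral endoderm takes up maternal nutrients. Cubn, cubilin, a receptor for vitamin B12 complexes and albumin, fell to 0.610 and 0.871 FPKM at day 16, against 4.89 and 5.31 FPKM at day 8 (change -1.81 ± 0.12, adjusted p = 0.000367). Its partner Amn, amnionless, fell to 0.799 and 0.651 FPKM at day 16, against 7.84 and 3.77 FPKM at day 8 (adjusted p = 0.0486). The day 8 libraries of Amn were far apart, and its call was kept in 4 of 12 fits, those without a day 0 library, with adjusted p up to 0.187. Dab2, the adaptor that links such receptors to clathrin, fell to 11 and 14.9 FPKM at day 16, against 26.5 and 26.2 FPKM at day 8 (adjusted p = 0.00984, and 0.0644 and 0.0797 without day 8 replicate 1 and 2). Lrp2, a large receptor that works with cubilin, had 8.08 and 7.56 FPKM at day 16, against 8.61 and 9.93 FPKM at day 8, and did not pass (adjusted p = 0.521). The unnamed gene models Gm43493 and Gm19810 fell more than any of these genes, by 3.18 and 2.55 on the log2 scale, and were listed at 0 in both day 16 libraries. In WT, Cubn did not pass, at 40.7 and 41.3 FPKM at day 16, against 35.0 and 37.4 FPKM at day 8. Its difference between the lines was -1.99 ± 0.17 (adjusted p = 0.000129). Dab2 fell in WT as well (change -0.62, adjusted p = 0.00498), and its difference did not pass (adjusted p = 0.207). Amn did not pass in WT (adjusted p = 0.217), nor did its difference (adjusted p = 0.12).

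Lgmn, a lysosomal protease, fell to 24.7 and 21.6 FPKM at day 16, against 61.1 and 61.0 FPKM at day 8 (change -1.37 ± 0.11, adjusted p = 0.000702). Gpx3, a secreted glutathione peroxidase, fell to 30.1 and 28.9 FPKM at day 16, against 75.5 and 68.1 FPKM at day 8 (change -1.25 ± 0.10, adjusted p = 0.000612). In WT, Gpx3 rose to 858 and 889 FPKM at day 16, against 398 and 408 FPKM at day 8. S100g, a calcium carrier of absorbing epithelia, fell to 6.43 and 8.86 FPKM at day 16, against 24.8 and 26.4 FPKM at day 8 (adjusted p = 0.00692, and 0.0646 and 0.053 without day 8 replicate 2 and day 16 replicate 1). Npl, an enzyme of sialic acid breakdown, fell to 4.01 and 3.55 FPKM at day 16, against 8.30 and 11 FPKM at day 8 (adjusted p = 0.00977, and 0.0618, 0.0508 and 0.0722 without day 8 replicate 2, day 16 replicate 1 and day 16 replicate 2). Ctsh, another protease, had 15.3 and 12.4 FPKM at day 16, against 49.2 and 51.5 FPKM at day 8, and did not pass (adjusted p = 0.0934). Its day 0 libraries in WT, 13.4 and 3.63 FPKM, were far apart.

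Apob, Apoc2 and Apom fell, while the other apolipoprotein genes of the plasma protein list, Apoa1, Apoa2, Apoa4 and Apoe, did not pass (adjusted p = 0.545, 0.982, 0.904 and 0.769). Apob, the core protein of lipoprotein particles, fell to 7.89 and 5.64 FPKM at day 16, against 13.8 and 14.1 FPKM at day 8 (adjusted p = 0.0155, and 0.0771, 0.124 and 0.0624 without day 8 replicate 1, day 8 replicate 2 and day 16 replicate 2). Apoc2, the activator of lipoprotein lipase, fell to 2.37 and 3.52 FPKM at day 16, against 13.7 and 9.81 FPKM at day 8 (adjusted p = 0.0116, and 0.0734 and 0.0806 without replicate 1 of day 8 and of day 16). Apom fell to 1.79 and 1.05 FPKM at day 16, against 4.42 and 3.82 FPKM at day 8 (adjusted p = 0.0369). The call of Apom was kept only without a day 0 library of the 1343KO line and reached an adjusted p of 0.166 without day 16 replicate 2. Over the list of yolk sac and liver plasma proteins, 4 of 18 fell (22.2%, against 0.203% of all genes) and none rose, with a median change of -0.14. The 4 were these 3 and Amn. In WT 13 rose (72.2%, against 14.1% of all genes) and 3 fell (16.7%, near the 13.5% of all genes), with a median of 2.39. Apoc2 and Apom were among the 3 that fell in WT (change -0.92 and -0.59, adjusted p = 0.0132 and 0.0463). For neither did the difference between the lines pass (adjusted p = 0.129 and 0.247), while Apob rose in WT. Afp, alpha-fetoprotein, had 43.1 and 29.5 FPKM at day 16, against 60.6 and 50.2 FPKM at day 8 (adjusted p = 0.265). In WT, Afp rose to 8246 and 8139 FPKM at day 16, against 631 and 659 FPKM at day 8. Ttr, a carrier of thyroid hormone, had 7.92 and 9.71 FPKM at day 16, against 15.5 and 13.6 FPKM at day 8 (adjusted p = 0.0564).

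The extraembryonic endoderm list was not uniform. Of 19 tested members 3 fell (Cubn, Amn and Dab2; 15.8%, against 0.203% of all genes) and 1 rose, with a median change of -0.03. The one that rose was Lama1, a laminin chain of the basement membrane, with 14.5 and 16.5 FPKM at day 16, against 9.83 and 9.82 FPKM at day 8 (adjusted p = 0.038). Its call was kept only without a day 0 library of the 1343KO line and reached an adjusted p of 0.199 without day 8 replicate 2. The endoderm transcription factors Gata4, Gata6 and Sox17 did not pass (adjusted p = 0.812, 0.2 and 0.919). Gata6 had 7.30 and 5.88 FPKM at day 16, against 2.18 and 3.34 FPKM at day 8. The summed level of the list was 474.8 and 453.6 FPKM at day 16, against 501.9 and 511.4 FPKM at day 8.

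Of 19 tested genes of the simple epithelium list 3 fell (15.8%, against 0.203% of all genes) and none rose, with a median change of -0.30, against 0.03 over all genes. Krt8 and Krt18 form the keratin filament of simple epithelia. Krt8 fell to 112 and 118 FPKM at day 16, against 164 and 151 FPKM at day 8 (adjusted p = 0.0188, and 0.0618 to 0.128 without each of the 4 libraries compared). Krt18 fell to 160 and 179 FPKM at day 16, against 255 and 227 FPKM at day 8 (adjusted p = 0.0422). Anxa2, a membrane-binding protein, fell to 52.6 and 52.7 FPKM at day 16, against 78.5 and 77.2 FPKM at day 8 (adjusted p = 0.048). Krt8 and Krt18 fell in WT as well (change -0.59 and -0.37, adjusted p = 0.000212 and 0.0137), while Anxa2 rose there. For neither keratin did the difference between the lines pass (adjusted p = 0.359 and 0.547). Krt18 was kept only without a WT day 0 library, reaching 0.209 without day 16 replicate 1, and Anxa2 only without a day 0 library, reaching 0.229 without day 8 replicate 2. Krt15, a keratin of stratified epithelia, rose to 1.48 and 1.74 FPKM at day 16, against 0.0842 and 0 FPKM at day 8 (adjusted p = 0.0209, and 0.0794 to 0.152 without each of the 4 libraries compared).

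The small heat shock genes Hspb1 and Cryab encode chaperones that also bind filaments. Hspb1 fell to 175 and 178 FPKM at day 16, against 315 and 260 FPKM at day 8 (adjusted p = 0.0183, and 0.0788, 0.113 and 0.0993 without day 8 replicate 1, day 16 replicate 1 and day 16 replicate 2). Cryab fell to 14.7 and 16.0 FPKM at day 16, against 28.6 and 27.8 FPKM at day 8 (adjusted p = 0.0382), and was kept only without a day 0 library, reaching 0.198 without day 8 replicate 2. Hspb1 was the 1 of 10 genes of the heat shock list to pass (10%, against 0.203% of all genes called lower). Ooep, an oocyte and early embryo gene, fell to 9.23 and 10.3 FPKM at day 16, against 19.7 and 23.3 FPKM at day 8 (adjusted p = 0.0185, and 0.0617 to 0.153 without each of the 4 libraries compared). Cebpzos, a small mitochondrial protein gene, fell to 43.8 and 40.1 FPKM at day 16, against 76.0 and 82.7 FPKM at day 8 (adjusted p = 0.0225, and 0.0813 to 0.175 without each of the 4 libraries compared). Saa1, an acute-phase apolipoprotein, was listed at 0 at day 16, against 1.83 and 2.46 FPKM at day 8 (adjusted p = 0.0352), a call kept only without a WT day 16 library, reaching 0.24 without day 8 replicate 2. Saa1 reached 1 FPKM only in those day 8 libraries, so it entered the test through the group where it is high.

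None of the 10 core and 20 naive pluripotency genes passed in the 1343KO line, which at 0.804% of all genes called is near the background. Pou5f1 (Oct4), the central factor of pluripotency, had 419 and 397 FPKM at day 16, against 469 and 453 FPKM at day 8 (change -0.18 ± 0.09, adjusted p = 0.488). Sox2, its partner, had 172 and 191 FPKM at day 16, against 188 FPKM in both day 8 libraries (adjusted p = 0.857). Nanog had 139 and 158 FPKM at day 16, against 176 and 185 FPKM at day 8 (adjusted p = 0.186). At day 0 the 1343KO line had 851 and 801 FPKM of Pou5f1, 188 and 187 FPKM of Sox2 and 206 and 210 FPKM of Nanog. WT at day 16 held 23.6 and 18.6 FPKM of Pou5f1, 11 and 12.8 FPKM of Sox2 and 6.83 and 7.45 FPKM of Nanog. The median change of the 10 core pluripotency genes was -0.05 in the 1343KO line, against -0.72 in WT, where 9 of them fell (90%, against 13.5% of all genes). For 7 of the 10 the difference between the lines passed, in each case positive, against 8.5% of all genes.

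Of 20 naive pluripotency genes none passed, and 17 had a negative sign, with a median of -0.25, against 0.03 over all genes. Zfp42 (Rex1), which marks the naive state, had 72.1 and 72.2 FPKM at day 16, against 106 and 99.1 FPKM at day 8 (change -0.50 ± 0.11, adjusted p = 0.0879). Klf4 had 12.3 and 11.9 FPKM at day 16, against 18.4 and 20.3 FPKM at day 8 (adjusted p = 0.101). Esrrb had 74.8 and 73.5 FPKM at day 16, against 81.2 and 73.7 FPKM at day 8 (adjusted p = 0.9). The 2 days did not overlap for Zfp42 and Klf4, as for 41.9% of all genes, and overlapped for Esrrb.

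**Figure D4:**
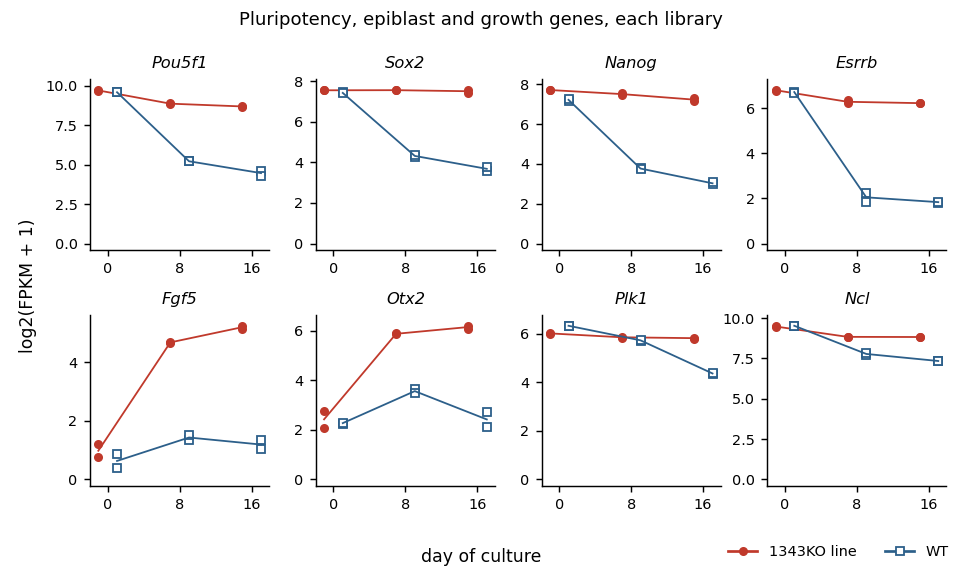
Log2(FPKM + 1) by day of culture of pluripotency factors (top row), the epiblast genes Fgf5 and Otx2, the mitotic kinase gene Plk1 and the nucleolin gene Ncl, with 1 point per library and lines through the group means; red circles are the 1343KO line and open blue squares WT. From day 8 to day 16 none of the 8 passed in the 1343KO line, and its Pou5f1, Sox2, Nanog and Esrrb stand above WT at both days.

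Genes of cell growth and division fell in WT and differed between the lines. None of 20 mitosis genes, 22 DNA replication genes, 37 ribosome biogenesis genes or 29 cytosolic ribosomal protein genes passed in the 1343KO line, which is near the background of 0.804%, and their median changes were -0.01, 0.04, 0.04 and -0.05. In WT 20, 20, 27 and 26 of these fell, against 13.5% of all genes, and none rose. The difference between the lines passed as positive for 19, 15, 22 and 16 of them, against 8.5% of all genes, and as negative for none. Plk1, a mitotic kinase, had 55.1 and 56.6 FPKM at day 16, against 56.0 and 58.5 FPKM at day 8 (change -0.04 ± 0.07, adjusted p = 0.886). In WT, Plk1 fell to 19.4 and 20.0 FPKM at day 16, against 51.3 and 53.4 FPKM at day 8, and the difference between the lines was 1.33 ± 0.09 (adjusted p = 3.81e-05). Ncl, nucleolin, a main protein of the nucleolus, had 453 and 456 FPKM at day 16, against 460 and 455 FPKM at day 8 (change -0.01 ± 0.05, adjusted p = 0.97). Mki67, a marker of dividing cells, had 34.1 and 32.6 FPKM at day 16, against 28.1 and 29.4 FPKM at day 8 (adjusted p = 0.348).

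Immune and lysosomal genes rose in WT and differed between the lines. None of the 15 macrophage genes passed in the 1343KO line, near the background of 0.804%, with a median change of 0.00, while in WT all 15 rose, against 14.1% of all genes, with a median of 3.23. The summed level of the macrophage list was 12.3 and 12.91 FPKM at day 16 of the 1343KO line, against 16.22 and 12.93 FPKM at day 8, and 409.9 and 383.1 FPKM at day 16 of WT. Csf1r, the receptor that macrophages need, had 2.11 and 1.46 FPKM at day 16, against 1.26 and 1.32 FPKM at day 8 of the 1343KO line (adjusted p = 0.616). Of 21 interferon response and class I presentation genes none passed in the 1343KO line, near that background, and 19 rose in WT (90.5%). Of 17 lysosome genes none passed in the 1343KO line, near that background, and 15 rose in WT (88.2%, against 14.1% of all genes). The difference between the lines passed for 15 macrophage, 17 interferon and 15 lysosome genes, all lower in the 1343KO line, against 8.2% of all genes.

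**Figure D5:**
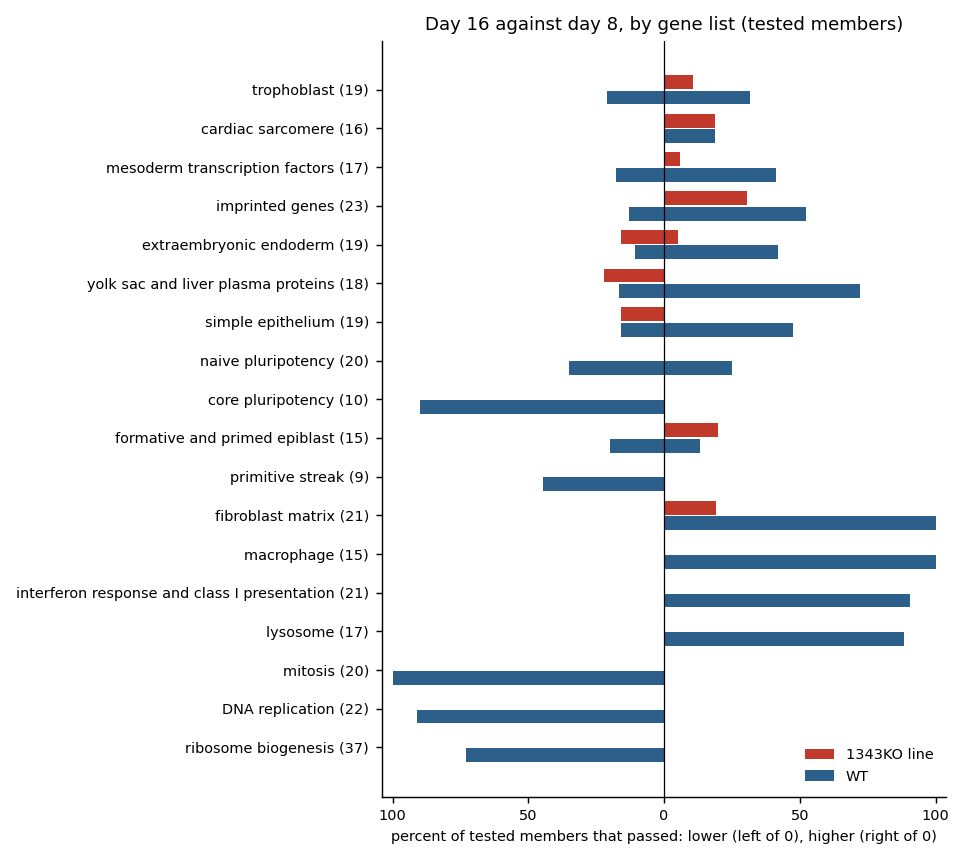
Percent of tested members of 18 gene lists that passed from day 8 to day 16, lower to the left of 0 and higher to the right, with the number of tested members in brackets; red bars are the 1343KO line and blue bars WT. The longest bar of the 1343KO line is 30.4%, for imprinted genes, and its bars are absent from the lists from macrophage to ribosome biogenesis, where WT bars reach from 73.0% to 100%.

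The 98 genes that rose in the 1343KO line were set gene by gene beside WT, where 14.1% of all genes passed higher and 13.5% lower. In WT 39 of the 98 passed higher, 16 passed lower, a share near that of all genes, and 43 did not pass. The difference between the lines was positive and passed for 53 of them, and was negative and passed for 14. Of the 33 genes that fell, 11 rose in WT, 8 fell and 14 did not pass, and the difference passed for 22, all more negative in the 1343KO line. Because both comparisons share the fit and its spread, these counts describe the members and test no overlap.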

How the data were processed

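Poly(A) RNA of mouse embryonic stem cells and embryoid bodies was made into NEBNext Ultra II libraries for Illumina sequencing, per the labels' protocols. The authors deposited FPKM values per gene for 12 libraries. Per the submitters' processing notes, Cufflinks 2.1.1 and GRCm38 (mm10) were used; no aligner or annotation is named in the sources used here. Of the 54537 genes, 99.9% had an identifier in GENCODE M21. Starts in the file count from 0, so coordinates are printed with 1 added to the start. Of 6620 genes whose median reached 10 FPKM, 17 had a 0 in some library. A 0 may thus be a failed estimate, and the text says listed at 0.

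Groups came from titles, genotype and time labels. The test took genes that reached 1 FPKM in 2 or more libraries. In limma 3.58.1 (R 4.3.3), log2(FPKM + 1) of all 12 libraries was modelled by 1 mean per group, leaving 6 residual degrees of freedom, and eBayes was run with its trend option. Contrasts were 1343KO day 16 minus day 8, WT day 16 minus day 8, and the difference of these changes. Benjamini-Hochberg adjustment of the two-sided p was done per contrast. An exact permutation test of 2 against 2 libraries reaches p = 0.333 at the lowest, and calls rest on a spread pooled over genes and groups. For near-identical or overlapping genes, FPKM follows the estimated division of reads.

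Depth was estimated from low genes, whose FPKM are near whole multiples of 1 fragment: 70.4% to 81.1% of values lay within 0.05 of a whole number. This is approximate, and reads were not rebuilt for a count test. The members, the 47 lists and the tests were chosen with earlier results of these data known. The 3 gene families (prolactins, placental cathepsins, pregnancy-specific glycoproteins) and the promoter motifs were added after seeing the values. Named genes are Snhg3 and Rcc1, the 15 largest calls in each direction without overlap between days (unnamed gene models and small RNAs left out), 29 fixed markers, called members of the lists, and any other members taken to account for a list. Of 839 list entries 825 were in the table, and 14 were not analysed here. Alternatives were another pseudocount, other filters and scalings, a replicate block, robust eBayes, a minimum change, subsets of libraries, and each library left out. Fits with fewer libraries kept the genes tested in all 12. The script was tested on simulated data. Promoter windows are RefSeq's. Python 3.11.15 with matplotlib 3.10.9, numpy 2.4.6 and pandas 2.3.3 made the tables and plots.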

Additional observations from a re-analysis of the deposited data

Results flagged for a closer look

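A gene is given here where the change of the 1343KO line from day 8 to day 16 differed from the change of WT over the same days, by the test of that difference in the fit of all libraries (adjusted p under 0.05). Values are the 1343KO change minus the WT change of log2(FPKM + 1). The difference passed for 2720 of 16289 genes (16.7%), and no cause of it was tested. For genes said above to have entered the test through the group where they are high, the difference is a description.

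Among genes that rose in the 1343KO line and did not pass in WT, the difference was 3.43 for Prl2c3, 2.98 for Actc1, 2.82 for Prl2c2, 2.76 for Tnni1, 2.75 for Prl3d1, 2.49 for Prl4a1 and 2.44 for Asb4. In the same class it was 1.99 for Prl7b1, 1.97 for Prl3b1, 1.55 for Tnnt2, 1.28 for Cer1, 1.18 for Prl7d1, 1.10 for Cdh2 and 1.09 for Tpbpb, and it was 0.68 for Igf2r, 0.63 for Scd2 and 0.46 for Peg3. The difference did not pass for Prl2a1, Prl2c5, Prl7a1 or Ctsj (adjusted p = 0.0749, 0.0792, 0.059 and 0.673).

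Genes that rose in the 1343KO line and fell in WT were Hba-x, with a difference of 7.87, Rgs5 with 3.995, Nrp1 with 2.25, Amot with 2.18, Hmga2 with 2.09, Dnmt3b with 1.76, Trh with 1.63 and Mest with 1.08. Genes that rose in both lines, and more in the 1343KO line, were Hand2 with 1.40, Gkn1 with 1.30 and Grb10 with 0.50. Those that rose in both and less in the 1343KO line were Col3a1 with -2.97, Lum with -2.68, Col5a1 with -1.71, Plagl1 with -1.36 and Lama1 with -0.58.

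Among genes that fell in the 1343KO line, the WT change passed in the other direction for S100g, with a difference of -2.51, Gpx3 with -2.37, Anxa2 with -1.81, Npl with -1.80, Apob with -1.52 and Hspb1 with -1.40. It did not pass in WT for Saa1, with -2.11, Cubn with -1.99, Lgmn with -1.47, Cryab with -1.16 and Cebpzos with -1.11.

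Genes that did not pass in the 1343KO line but fell in WT were Hbb-bh1, with a difference of 8.86, Lin28a with 2.04, Hand1 with 1.64, Eomes with 1.60, Otx2 with 1.41, Cdx2 with 1.41, Plk1 with 1.33, T with 1.29, Gata4 with 1.23 and Mki67 with 1.11. Smaller differences were 0.78 for Rcc1, 0.58 for Sox2, 0.57 for Pou5f1, 0.46 for Nanog and 0.43 for Ncl. Genes that rose in WT alone were Col1a1, with -4.59, Afp with -4.28, Csf1r with -2.51, Prl2b1 with -2.17, Ttr with -2.12, Klf4 with -1.55, Peg10 with -0.98, Cdkn1c with -0.83 and Igf2 with -0.82. For Myl7, Kdr, Myh7 and Cdkn1a neither line's change passed while the difference did, at 3.23, 1.49, 1.51 and -0.64.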

How the results depend on the processing

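None of the 60 named genes that passed changed sign under any alternative run, while Cdkn1c, Esrrb, H19, Ncl, Plk1, Sox17, Sox2 and Zscan4c, which did not pass, did under at least 1 of other scaling or leaving out a 1343KO library. The 131 calls of the 1343KO line became 8 with a test for a log2 change beyond 1, 0 with only the 4 libraries compared, 10 with the 6 libraries of the 1343KO line (an alternative chosen after seeing the data) and 36 to 132 when 1 of the 12 libraries was left out. They were 96 with a pseudocount of 0.1, 150 with no filter, 114 with a mean of at least 5 FPKM, 119 and 125 with median-of-ratios and TPM scaling, 130 with robust empirical Bayes and 121 without chromosomes 8 and Y. The 4495 WT calls became 407 with the test beyond 1 and 2968 with only the 4 WT libraries, and 3050 to 4479 when 1 library was left out. The 2720 differences became 249 with the test beyond 1, and 1840 to 2642 when 1 library was left out. Scaling moved the share of differences that were positive, 50.9% as reported, to 44.3% with median-of-ratios and 59.0% with TPM. The filter at a mean of 5 FPKM moved that share to 64.0% and the WT share higher to 36.8%, with fewer genes tested. Of 60 named genes that passed, 36 kept their call with a pseudocount of 0.1, 47 with TPM scaling, 56 with median-of-ratios scaling, 4 in the fit of the 6 libraries, 0 with only the 4 libraries compared and 22 to 55 when 1 library was left out. The cause was not tested. The replicate number as a block gave 114 calls and kept 51 of the 60 named calls. Replicate differences of day 16 and day 8 correlated at -0.013 across genes in the 1343KO line, so no shift shared by replicate number was seen. This cannot show whether the numbers mark paired samples. Depth limits genes near 1 FPKM, which rest on few fragments.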

Other observations

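Other fixed markers gave no call in the 1343KO line. Nes, a filament of neural progenitors, had 8.27 and 8.37 FPKM at day 16, against 5.68 and 6.01 FPKM at day 8 (adjusted p = 0.192). Pax6, a neural transcription factor, had 4.88 and 3.72 FPKM at day 16, against 3.11 and 2.67 FPKM at day 8 (adjusted p = 0.499). No gene of the 13 tested neural progenitor genes passed, which at 0.804% of all genes called is near the background. Of these, 12 had a positive sign, and the list's median change was 0.45, against 0.03 over all genes. Acta2, smooth muscle actin, had 34.1 and 35.3 FPKM at day 16, against 39.7 and 38.4 FPKM at day 8 (adjusted p = 0.566). Cdkn1a, a p53 target that halts the cell cycle, had 32.1 and 40.9 FPKM at day 16, against 48.7 and 45.6 FPKM at day 8 (adjusted p = 0.27). None of 24 p53 targets passed, near the background of 0.804%. Of these 24, 18 had a negative sign, and the list's median change was -0.15, against 0.03 over all genes. Zscan4c, a gene of the 2-cell-like state, had 1.2 and 0.319 FPKM at day 16, against 0.841 and 0.173 FPKM at day 8 (adjusted p = 0.843). Scd2, a fatty acid desaturase, rose to 81.2 and 85.4 FPKM at day 16, against 58.3 and 54.3 FPKM at day 8 (adjusted p = 0.00415).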
